A study of Mus musculus with 5 samples.

Results

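The 5′ TOP messages are a class of mRNAs that begin with a C followed by a run of pyrimidines, and they encode much of the machinery of protein synthesis. The 10 genes described here were chosen by name as well-known members of this class that do not encode ribosomal proteins, and all 10 were found among the 24527 genes of the deposited count table and passed the filter on low counts. They are Eef1a1, Eef1b2, Eef1d, Eef1g and Eef2, which encode translation elongation factors, Naca and Btf3, which encode the nascent polypeptide-associated complex, and Pabpc1, Npm1 and Tpt1. Bulk RNA sequencing was performed on prostate tumors of TripleTg mice, 3 of them castrated and 2 intact, with 1 animal per sample. All 5 carried the hHGFtg transgene, which expresses human HGF ubiquitously, an H11 hMET/+ allele for human MET and a Ctnnb1 L(Ex3)/+ allele for stabilized β-catenin, the latter 2 switched on in prostate epithelial cells by PB Cre4, a Cre recombinase under the probasin promoter, on mixed C57BL/6 and C3H SCID backgrounds. Castration was done at 4 months of age and tumors of both groups were collected at 8 months. The castrated libraries held 28015507, 18951782 and 20492061 counts and the intact libraries 21560355 and 22853501, and values below follow this order, castrated replicates 1 to 3 and then intact replicates 1 and 2.

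During elongation, eEF1A carries each aminoacyl-tRNA to the ribosome, the eEF1B complex reloads eEF1A with GTP, and eEF2 moves the ribosome along the message by a codon. The pyrimidine tract at the 5′ end makes these messages respond together to mTORC1, largely through the cap-binding protein LARP1, which restrains their translation and protects them from decay when mTORC1 is inactive. The counts used here measure the abundance of the messages and not their translation, and in bulk tissue fewer cells of a type and less RNA per cell cannot be told apart.

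The pyrimidine tract that names the class was read from the annotated transcripts. In the first 100 bases of the principal GENCODE transcript (mouse build GRCm38, which is mm10), the longest unbroken run of C and T that begins with C was taken on the transcript strand. Such a run of 5 bases or more was present in 10 of the 10 genes, in 96.1% of 77 cytosolic ribosomal protein genes and in 75.3% of 14024 tested genes with a principal transcript. A run of 9 bases or more was present in 5 of the 10, in 53.2% of the ribosomal protein genes and in 17.9% of the tested genes. The run began at the annotated first base in Pabpc1 alone among the 10, and in 2.27% of the tested genes for runs of 5 or more. Start sites were not measured in these samples, and a run inside the annotated leader describes letters and does not show where a message starts. Of the sequences, 6 are shown 5′ to 3′, those of the elongation factors with the most reads (Eef1a1 and Eef2), the 2 genes with the largest differences between groups, the partner in the nascent chain complex with the longest deposited length and the gene whose run starts at base 1, with the run in capitals.
Eef1a1: gacgttCTTTTTCgcaacgggtttgc
Eef2: agcggtCTCTTCCgccgcagccgccg
Eef1b2: ctccggCTCCTCagagggcgtttccc
Npm1: cgagatCTCCTgcgaccatatatacg
Naca: gcccggCTTCCTTCTgcaacaggcgt
Pabpc1: CCCCTTCTCCCCggcggttagtgctg
All 6 lie in the first exon of their gene, at chr9:78481652-78481677 (minus strand) for Eef1a1, chr10:81176640-81176665 (plus) for Eef2, chr1:63176874-63176899 (plus) for Eef1b2, chr11:33163098-33163123 (minus) for Npm1, chr10:128035599-128035624 (plus) for Naca and chr15:36608948-36608973 (minus) for Pabpc1.

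**Figure D1:**
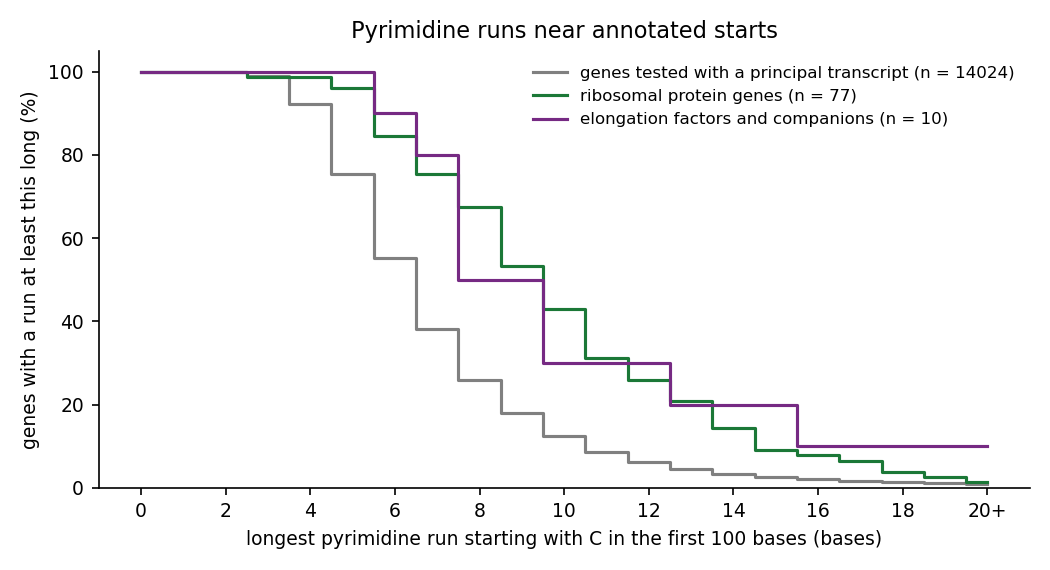
Share of genes (%, vertical axis) whose longest pyrimidine run beginning with C in the first 100 annotated bases is at least the length on the horizontal axis (bases, 20 and longer joined). The line for the 10 elongation factors and companions and that for the 77 ribosomal protein genes lie above the line for the 14024 tested genes at 7 and at 9 bases, where the shares were 80.0%, 75.3% and 38.1%, and 50.0%, 53.2% and 17.9%.

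Before the results, 1 library needs description. Intact replicate 2 held the highest value of 10 of the 10 genes and of 77 of the 77 ribosomal protein genes, against 31.3% of all genes tested. Ribosomal protein genes took 12.7% of its counts, against 4.80% in intact replicate 1 and 4.48%, 3.85% and 4.50% in the castrated samples. Pbsn, which encodes probasin, a secreted protein of prostate epithelium, was chosen here after its values were seen and had 13, 0 and 5 counts in the castrated and 0 and 112 counts in the intact samples. General epithelial markers were present in every sample. Krt8, a luminal keratin, had 872, 774 and 1140 CPM (counts scaled to library size, with factors from the trimmed mean of M-values) in the castrated and 1151 and 659 CPM in the intact samples. Krt5, a basal keratin, had 127, 90.2 and 289 CPM in the castrated and 28.8 and 403 CPM in the intact samples. Of 8 epithelial markers, 7 had a fold change below 0 (castrated against intact, median -0.26 on the log2 scale), with Krt8 the exception. With 1 sample left out, 4 to 8 did, and the median ran from -0.35 to -0.14. Their summed CPM was 4217, 3851 and 4793 in the castrated and 6124 and 4351 in the intact samples. The values of the 10 genes are given with and without intact replicate 2 because of its high values.

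The question asked of these samples was how tumors that grow after castration differ from those of intact mice. For these 10 genes, every estimated difference was towards lower abundance in castrated tumors, and 0 of the 10 passed the threshold. The fold changes ran from -0.25 for Eef1d to -1.51 for Eef1b2 on the log2 scale, with a median of -0.69, against -0.03 over all genes tested and -1.08 over the ribosomal protein genes. A fold change below 0 was found in 52.1% of all genes tested. The threshold of a Benjamini-Hochberg adjusted p under 0.05 together with an absolute log2 fold change above 1, in the edgeR quasi-likelihood test, was passed by 0 of 14612 genes, which is 0% of those tested. At an unadjusted p under 0.05 the same test gave 2195 genes, 1596 of them with an absolute log2 fold change above 1. Both thresholds together called 369 genes in edgeR's likelihood ratio test and 989 in DESeq2, with 0 of the 10 among them in either.

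Of the 10 genes, 3 (Eef1b2, Npm1 and Btf3) had an unadjusted p under 0.05 with lower abundance in castrated tumors, beside 6.28% of all genes tested. In 5 of the 10 (Eef1b2, Npm1, Pabpc1, Naca and Btf3) every castrated sample lay below both intact samples, beside 16.1% of all genes tested. Both counts turned on single libraries. When an intact replicate is left out the intact arm is 1 sample, which is then assumed to vary like the castrated samples, whose spread alone stands behind those p-values. Without intact replicate 1 they were 7 and 10, beside 10.5% and 35.6% of all genes in the same fit. The counts were 0 and 4 without intact replicate 2, beside 5.93% and 31.4%, and without castrated replicate 1, 2 or 3 the first count was 0, beside 5.88%, 2.67% and 2.68%. The median fold change of the 10 was -0.98 without intact replicate 1, where that of the ribosomal protein genes was -1.64. It was -0.15 without intact replicate 2, where that of the ribosomal protein genes was -0.17 and 4 of the 10 fold changes were above 0.

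**Figure D2:**
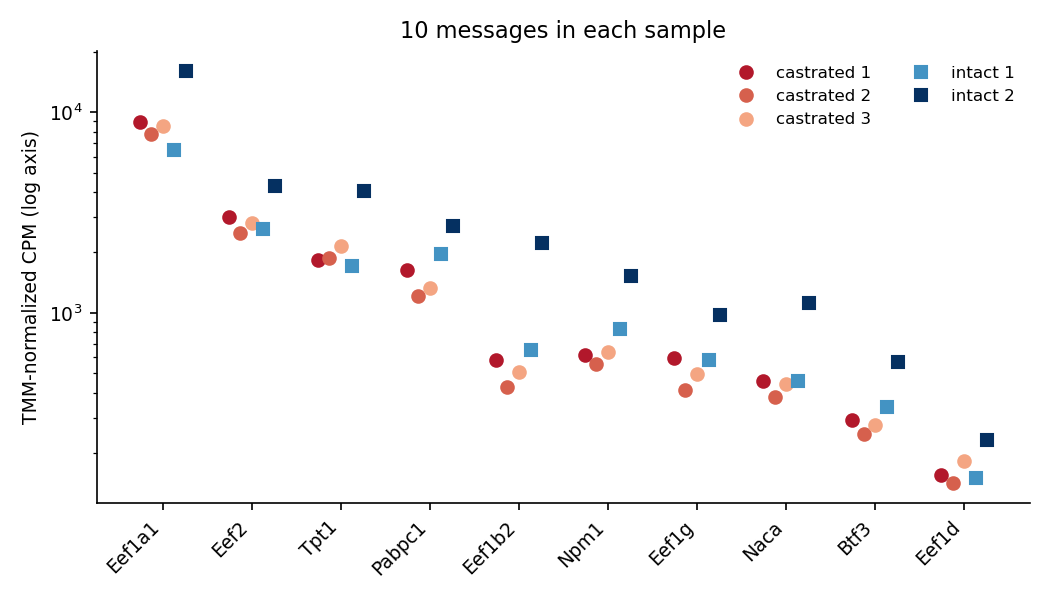
Normalized CPM (log axis) of the 10 messages in each of the 3 castrated (circles) and 2 intact (squares) samples, 1 point a sample, ordered by mean CPM. The darkest square, intact replicate 2, is the highest point for each gene, while intact replicate 1 lies above all castrated samples in 5 genes, within their range in 3 and below them in 2.

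Eef1a1, the factor that delivers aminoacyl-tRNA, is the gene with the most counts in the table. Its CPM was 8984, 7754 and 8564 in the castrated and 6480 and 16001 in the intact samples. The castrated samples thus lay between the intact samples, and the lowest value of all was in an intact tumor. The means were 8434 ± 625 CPM (SD, n = 3) in castrated and 11240 ± 6732 CPM (SD, n = 2) in intact tumors, and the fold change was -0.41 on the log2 scale (SE 0.99, Benjamini-Hochberg adjusted p = 0.870, edgeR quasi-likelihood test). Without intact replicate 2 it was 0.38, the opposite direction. Eef1a1 alone took 0.922%, 0.766% and 0.861% of the counts of the castrated samples and 0.673% and 1.51% of those of intact replicates 1 and 2.

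Eef1b2, which encodes the catalytic alpha subunit of eEF1B that exchanges GDP for GTP on eEF1A, showed the widest spread. It had 580, 426 and 508 CPM in the castrated and 652 and 2229 CPM in the intact samples. The groups did not overlap, but intact replicate 1 was close to the castrated samples, and intact replicate 2 was 3.42-fold higher. The fold change of Eef1b2 was -1.51 on the log2 scale (SE 0.55, unadjusted p = 0.0375, Benjamini-Hochberg adjusted p = 0.316 in the edgeR quasi-likelihood test), and lower values were seen in 3 of 3 castrated samples. Without intact replicate 2 it was -0.37, and without intact replicate 1 it was -2.12.

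The other subunits of eEF1B differed less between groups. Eef1g, which encodes the gamma subunit that holds the complex together, had 593, 414 and 493 CPM in the castrated and 580 and 973 CPM in the intact samples. Eef1d, which encodes the second exchange subunit, had 156, 142 and 182 CPM in the castrated and 150 and 232 CPM in the intact samples. In both genes intact replicate 1 fell within the range of the castrated samples. The log2 fold changes were -0.64 (SE 0.33) for Eef1g and -0.25 (SE 0.26) for Eef1d, with Benjamini-Hochberg adjusted p = 0.417 and 0.671 in the edgeR quasi-likelihood test. Without intact replicate 2 they were -0.21 and 0.09.

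Eef2, the translocase that is the target of diphtheria toxin through its diphthamide residue, had 2988, 2496 and 2816 CPM in the castrated and 2611 and 4283 CPM in the intact samples. Intact replicate 1 again fell among the castrated samples. The fold change was -0.32 on the log2 scale (SE 0.52, Benjamini-Hochberg adjusted p = 0.802 in the edgeR quasi-likelihood test) and 0.09 without intact replicate 2.

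Naca and Btf3 encode the alpha and beta subunits of the nascent polypeptide-associated complex, which binds new chains as they leave the ribosome. Btf3 had 291, 248 and 275 CPM in the castrated and 337 and 570 CPM in the intact samples. Naca had 454.8, 381 and 444 CPM in the castrated samples, and 454.9 and 1113 CPM in the intact samples. Neither gene's groups overlapped, although for Naca intact replicate 1 and castrated replicate 1 were almost equal. The log2 fold changes were -0.74 for Btf3 (SE 0.28, unadjusted p = 0.0451, adjusted p = 0.328) and -0.88 for Naca (SE 0.42, adjusted p = 0.381), both adjusted after Benjamini-Hochberg in the edgeR quasi-likelihood test. Without intact replicate 2 they were -0.31 and -0.09.

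Pabpc1 encodes the cytoplasmic poly(A)-binding protein, which joins the tail of a message to its cap through eIF4G. It had 1626, 1209 and 1332 CPM in the castrated and 1962 and 2702 CPM in the intact samples. The intact samples differed by 1.38-fold, the smallest gap between them among the 10 genes, and Pabpc1 was the single gene of the 10 in which, on the log2 scale, intact replicate 1 lay nearer to intact replicate 2 than to the castrated mean. The fold change was -0.75 on the log2 scale (SE 0.40, Benjamini-Hochberg adjusted p = 0.425 in the edgeR quasi-likelihood test), and -0.50 without intact replicate 2, which made it the gene furthest below 0 in that fit among the 10.

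Npm1 encodes nucleophosmin, a nucleolar histone chaperone that takes part in ribosome assembly. It had 617, 558 and 638 CPM in the castrated and 833 and 1522 CPM in the intact samples, so that the groups were apart and the castrated samples were close to each other. The means were 604 ± 41.9 CPM (SD, n = 3) and 1177 ± 487 CPM (SD, n = 2). The fold change was -0.96 on the log2 scale (SE 0.35, unadjusted p = 0.0379, Benjamini-Hochberg adjusted p = 0.316 in the edgeR quasi-likelihood test), and -0.46 without intact replicate 2.

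Tpt1 encodes the translationally controlled tumor protein, a small and abundant protein named for the control of its own message. It had 1836, 1877 and 2160 CPM in the castrated and 1702 and 4026 CPM in the intact samples. As for Eef1a1, the lowest and the highest values were both in intact tumors. The fold change was -0.55 on the log2 scale (SE 0.54, Benjamini-Hochberg adjusted p = 0.663 in the edgeR quasi-likelihood test) and 0.20 without intact replicate 2.

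**Figure D3:**
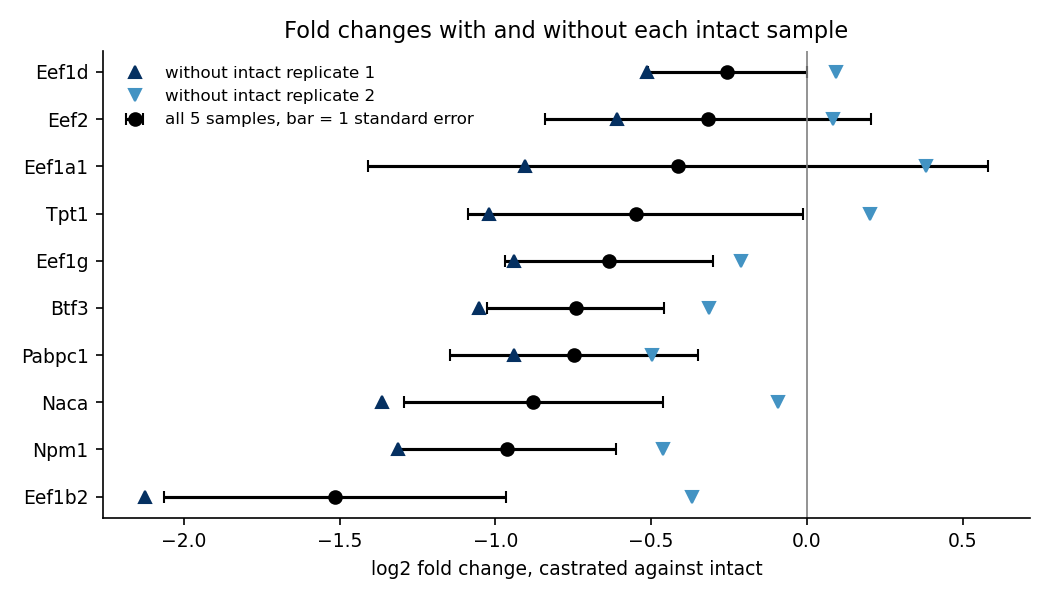
Log2 fold change of each gene, castrated against intact (horizontal axis), from edgeR's fit to all 5 samples (circles, bars of 1 standard error) and without intact replicate 1 or 2 (triangles). Without intact replicate 2 the values lie between -0.50 for Pabpc1 and 0.38 for Eef1a1, and without intact replicate 1 all 10 lie further below 0 than with all samples.

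The 10 genes together took 1.86%, 1.53% and 1.75% of the counts in the castrated and 1.64% and 3.18% in the intact samples. The share in intact replicate 1 was therefore inside the range of the castrated samples. On the TPM scale, which divides by the deposited gene length so that genes can be compared, the mean level over the 5 samples ran from 11828 for Eef1a1 through 5746 for Tpt1, 2201 for Eef2, 1404 for Pabpc1, 1074 for Npm1, 967 for Eef1b2, 871 for Eef1g and 678 for Btf3 to 174 for Naca and 129 for Eef1d. The ranges over samples of neighbours from Pabpc1 to Btf3 overlapped, as did those of Naca and Eef1d. Within every sample, however, Pabpc1 was above Npm1, Eef1g above Btf3 and Naca above Eef1d on these lengths. The place of Eef1b2 is not firm. Its 2152 TPM in intact replicate 2 was above Npm1 (1659) and Eef1g (1164), while in each other sample it was below both. The place of Naca rests on its length. The deposited length is 7136 bases, and with the principal GENCODE transcript of 885 bases the TPM of Naca was 1403, which moved it from the ninth to the fourth place. Pabpc1 was at 1398 on its principal length, so that these 2 were almost equal. The TPM totals were not computed again with the principal lengths.

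Ratios within a sample do not depend on the factor by which a library is scaled. On the log2 scale the ratio of Eef1b2 to Eef1a1 was -3.95, -4.19 and -4.08 in the castrated and -3.31 and -2.84 in the intact samples, lower in 3 of 3 castrated samples by a mean of 0.99. The ratio of Npm1 to Eef1a1 was -3.86, -3.80 and -3.75 in the castrated and -2.96 and -3.39 in the intact samples, a difference of -0.62. Both were apart between the groups, and both differences kept their sign when any 1 sample was left out. That of Eef1b2 then ran from -1.23 to -0.76 and that of Npm1 from -0.84 to -0.41. The ratio of Eef1d to Eef1g was higher in castrated tumors. It was -1.93, -1.54 and -1.44 in the castrated and -1.95 and -2.07 in the intact samples. Its difference was 0.37, and ran from 0.28 to 0.52 with 1 sample left out. Eef2 to Eef1a1 was -1.59, -1.64 and -1.60 in the castrated samples and lay between the intact values of -1.31 and -1.90. Naca to Btf3 was likewise 0.64, 0.62 and 0.69 in the castrated samples, between 0.43 and 0.97. The castrated tumors were thus tight in these 2 ratios and the intact tumors spread on both sides. The median log2 CPM of the 10 genes minus the median log2 CPM of the ribosomal protein genes was 0.23, 0.011 and 0.10 in the castrated and 0.51 and 0.26 in the intact samples, a difference of -0.27, which was -0.52 with a correction for gene length and ran from -0.40 to -0.14 with 1 sample left out. This measure of levels has the opposite sign to the comparison of median fold changes, which were -0.69 for the 10 and -1.08 for the ribosomal protein genes, but -0.15 and -0.17 without intact replicate 2. With 3 against 2 samples the smallest two-sided exact permutation p is 0.2, so that none of the 11 ratios tested could pass, and the smallest Benjamini-Hochberg adjusted value among these exact tests was 0.44.

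Paralogs of the 10 genes were more varied. Eef1a2, which encodes the form of eEF1A known from muscle and neurons, had 126, 427 and 362 counts in the castrated but 2 and 1 counts in the intact samples. The pooled ratio of castrated to intact was 201-fold (95% exact interval 68.5 to 976, for counting error only). The Benjamini-Hochberg adjusted p was 0.289 in the edgeR quasi-likelihood test, higher in 3 of 3 castrated samples, and 2.2e-08 by DESeq2. Per deposited length, Eef1a2 had a level of 1.30, 6.80 and 5.13 TPM in the castrated samples, where Eef1a1 had 11888, 10340 and 11188 TPM. The deposited length of Eef1a2 was not compared with its principal transcript, so that its level per length is uncertain. Of 5 skeletal muscle markers, Ckm and Myh4 had at most 1 count in every sample, and the sum of the list, led by Mylpf, was 2.09, 2.78 and 2.96 CPM against 2.05 and 2.55 CPM. Adipocyte markers had a fold change above 0 in 8 of 8 cases, and their summed CPM, led by Fabp4, was 39.8, 630 and 578 in the castrated and 26.03 and 51.97 in the intact samples, with Cfd and Pck1 at 0 counts in both intact samples. Neuroendocrine markers had one in 5 of the 5 tested, and the summed CPM of all 6, led by Chgb, was 18.8, 26.6 and 30.0 against 1.79 and 2.22. The part of these cells in the Eef1a2 values was not tested.

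Of the remaining paralogs, those tested gave no call in the edgeR quasi-likelihood test, like every other gene in it. Nacad, a paralog of Naca, had 2.29, 2.19 and 2.82 CPM in castrated and 1.47 and 0.32 CPM in intact samples. Btf3l4, Pabpc4 and Npm3 had log2 fold changes of -0.52, -0.52 and -0.73, and in each the groups overlapped and intact replicate 2 was highest. Pabpc1l, an oocyte form of the poly(A)-binding protein, had at most 4.60 CPM and a log2 fold change of -1.76 (SE 0.67, Benjamini-Hochberg adjusted p = 0.327 in the edgeR quasi-likelihood test). Npm2 was below the filter, with 12 counts at most.

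Other genes of the class were read from lists fixed by name. Of 25 further 5′ TOP messages, among them subunits of eIF3 and the ribosome-bound Rack1, 22 had a fold change below 0 (median -0.43), 4 had an unadjusted p under 0.05 with lower and 1 with higher abundance in castrated tumors, beside 6.28% and 8.74% of all genes tested. The fold change was below 0 in 13 of the 25 when intact replicate 2 was left out, with a median of -0.0057, and without intact replicate 1 the median was -0.76. The 4 became 14 without intact replicate 1, 1 without intact replicate 2 and 0 without castrated replicate 2 or 3, beside 10.5%, 5.93%, 2.67% and 2.68% of all genes in those fits. Rack1 was likewise highest in intact replicate 2, with 921, 769 and 858 CPM in castrated and 1016 and 2721 CPM in intact samples. Hint1, a nucleotide hydrolase, had 127, 122 and 117 CPM in the castrated and 200 and 175 CPM in the intact samples, and was not highest in intact replicate 2. Vim, the intermediate filament gene of mesenchymal cells, was highest in the castrated samples, with 689, 1646 and 947 CPM in castrated and 456 and 212 CPM in intact samples. The summed CPM of 6 fibroblast markers, led by Dcn, was 4311, 5396 and 7163 in castrated and 4122 and 2460 in intact samples. Dcn alone had 995, 2653 and 3812 against 485 and 493 CPM, while Col1a1, Col1a2 and Col3a1 had log2 fold changes of -0.36, 0.01 and 0.09 and overlapping groups. The summed CPM of 7 macrophage markers, led by Cd68, was 850, 2349 and 1154 against 486 and 503. Smooth muscle markers had a fold change above 0 in 6 of 6 cases, and their sum, led by Acta2, was 373, 668 and 603 CPM in castrated and 197 and 137 CPM in intact samples. The part of these cells in the Vim values was not tested.

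The 5′ TOP class also includes noncoding genes whose introns carry small nucleolar RNAs. All 7 of these hosts (Gas5, Snhg1, Snhg5, Snhg6, Snhg8, Snhg12 and Zfas1) had a fold change below 0, with a median of -1.33, and 6 had an unadjusted p under 0.05, beside 52.1% and 6.28% of all genes tested. Snhg1 had 50.1, 32.9 and 35.5 CPM in the castrated and 107 and 179 CPM in the intact samples. Snhg6 had 19.99, 15.7 and 15.4 CPM in the castrated and 48.2 and 48.7 CPM in the intact samples, so that here the intact samples were nearly equal. The log2 fold changes were -1.86 (SE 0.31) for Snhg1 and -1.51 (SE 0.22) for Snhg6, both with a Benjamini-Hochberg adjusted p = 0.289 in the edgeR quasi-likelihood test. DESeq2 gave adjusted p-values of 1.2e-04 for Snhg1, 5.9e-07 for Snhg6, 6.1e-04 for Snhg8 and 0.020 for Zfas1. The likelihood ratio test in edgeR gave 0.0033 for Snhg1, 0.0075 for Snhg6 and 0.043 for Zfas1. Gas5, Snhg5 and Snhg12 passed the threshold in neither test, and Snhg8 did not in the second. The median of the 7 hosts was -0.92 without intact replicate 2, with 3 of 7 at an unadjusted p under 0.05 beside 5.93% of all genes in that fit, where the median of the 10 coding genes was -0.15.

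**Figure D4:**
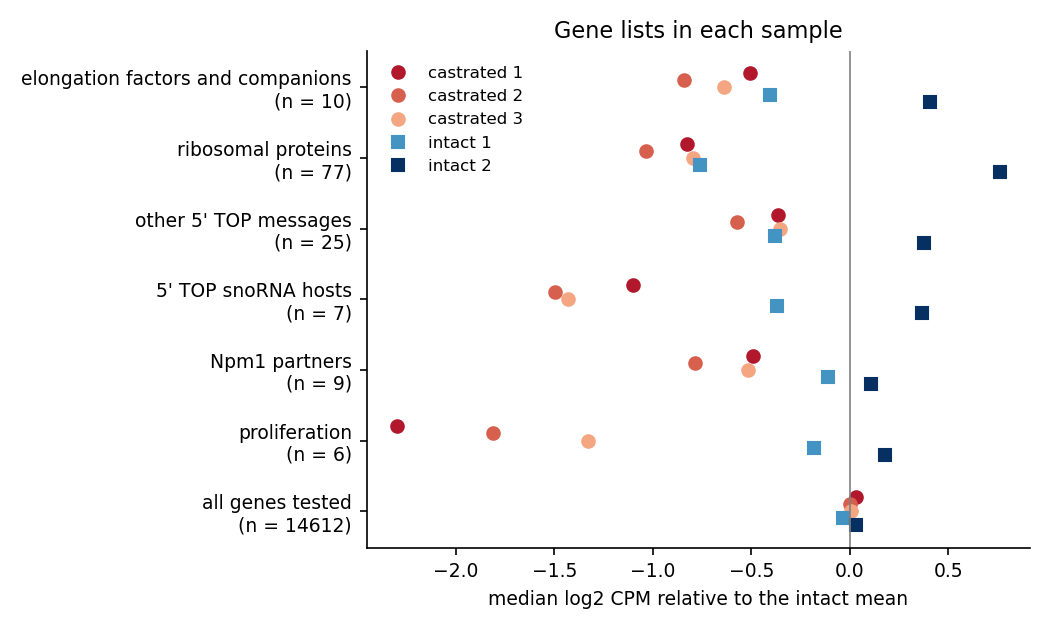
Median log2 CPM of each gene list relative to its mean in the intact samples (horizontal axis), 1 point a sample. For the elongation factors and companions intact replicate 1 (-0.41) lies close to castrated replicate 1 (-0.51), while for the small nucleolar RNA hosts (-0.37 against -1.10) and for the proliferation genes (-0.18 against castrated values from -2.30 to -1.33) it lies apart from all castrated samples.

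Partners of Npm1 in the nucleolus were tested in 9 cases, and 9 of 9 had a fold change below 0, with a median of -0.60 and 5 at an unadjusted p under 0.05, beside 52.1% and 6.28% of all genes tested. Nop56, a core protein of box C/D small nucleolar ribonucleoproteins, had 78.9, 72.8 and 53.1 CPM in castrated and 159 and 138 CPM in intact samples. Nop58, its partner in the same particle, had 90.1, 86.6 and 84.7 CPM against 132 and 170 CPM, and Dkc1, the pseudouridine synthase of the box H/ACA particles, had 39.1, 37.1 and 38.3 CPM against 55.1 and 78.9 CPM. In each of these 3 every castrated sample lay below both intact samples, but they were picked for the smallest p of the list. Over the whole list this was so in 7 of 9, beside 16.1% of all genes tested. Leaving out 1 sample left between 3 and 5 of the 9 at an unadjusted p under 0.05, beside 2.67% to 10.5% of all genes in those fits, and without intact replicate 2 the fold change was below 0 in 8 of 9, with a median of -0.36.

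The 5 lists that follow are read beside 52.1% of all genes tested with a fold change below 0 and 6.28% with lower abundance at an unadjusted p under 0.05. Among 13 other elongation and termination factors, 9 had a fold change below 0 (median -0.33), and 3 had an unadjusted p under 0.05. Of these Eef1a2, described above, had higher abundance, and Eef1e1, which encodes a scaffold of the multisynthetase complex, and Abce1, which splits ribosomes after termination, had lower abundance. Of 14 genes that modify eEF1A, eEF2 or eIF5A, 12 had a fold change below 0 (median -0.33) and 1, Dph3 of the diphthamide pathway, an unadjusted p under 0.05, a share near that of all genes. Of 11 genes that act on nascent chains, 8 had a fold change below 0 (median -0.23) and 0 an unadjusted p under 0.05 by edgeR's quasi-likelihood test. Of 12 partners of the poly(A)-binding protein, 11 had a fold change below 0 (median -0.31) and 3 an unadjusted p under 0.05. One of these was Pabpn1, the nuclear poly(A)-binding protein, with 24.9, 17.6 and 16.2 CPM in castrated and 47.5 and 47.7 CPM in intact samples. Of 17 regulators of the class, 14 had a fold change below 0 (median -0.31) and 2 an unadjusted p under 0.05. These were Rps6kb1, the S6 kinase below mTORC1, and Tia1, which binds 5′ TOP messages under amino acid starvation and had 61.8, 43.7 and 41.8 CPM against 101 and 110 CPM. With any 1 sample left out, these 5 lists held 0 to 2, 0 to 2, 0 to 1, 1 to 4 and 1 to 2 genes with lower abundance at an unadjusted p under 0.05, beside 2.67% to 10.5% of all genes. Their medians were nearer to 0 without intact replicate 2, at -0.19, -0.0029, -0.081, -0.16 and -0.23. Fold changes below 0 then numbered 7 of 13 for the modifying genes, 6 of 11 for the nascent chain genes and 8 of 12 for the partners of the poly(A)-binding protein. Without intact replicate 1 the medians of the first and the last of these 3 lists were -0.47 and -0.52, and without castrated replicate 1 that of the nascent chain genes was -0.39. Larp1, the repressor of the class, had 240, 278 and 209 CPM in castrated and 354 and 255 CPM in intact samples.

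Of the proliferation genes, 6 of 6 had a fold change below 0, with a median of -1.79 and 5 at an unadjusted p under 0.05, beside 6.28% of all genes tested (4 or 5 with any 1 sample left out, beside 2.67% to 10.5%). Mki67, a marker of cycling cells, had 18.7, 30.4 and 40.2 CPM in castrated and 100 and 127 CPM in intact samples. Both intact tumors lay well above every castrated tumor. The part of cell division in the values of the 10 messages was not tested.

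The genes closest to the 10 in their pattern over the 5 samples were found by the root mean square difference between centred log2 CPM profiles, over 14525 genes other than the 10 and the ribosomal protein genes. The mean profile of the 10 was -0.14, -0.40 and -0.19 in the castrated and -0.12 and 0.86 in the intact samples. The closest were Eif3m (0.0417), which encodes a subunit of eIF3 and is itself a listed 5′ TOP message, Idnk (0.0432), Bcl9 (0.0472), Araf (0.0496) and Nit2 (0.0546). The median difference over all genes tested was 0.578, but these genes were picked for the smallest differences. The ribosomal protein genes, left out of this ranking, had a median of 0.275 and a lowest value of 0.0629. Among the 10, the difference from their own mean ran from 0.0828 for Btf3 to 0.412 for Eef1b2. Eif3m had 163, 141 and 160 CPM in castrated and 162 and 348 CPM in intact samples, so that it too was set apart by intact replicate 2.

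Small nucleolar RNA genes lie inside Eef1b2, Eef2 and Tpt1. Snora41, in Eef1b2, had 8, 1 and 11 counts in the castrated and 33 and 30 counts in the intact samples. Snord37, in Eef2, had 1, 2 and 3 counts against 11 and 4, and Snora31, in Tpt1, had 22, 8 and 5 counts against 24 and 23. Each host had 7966 counts or more in every sample. How reads that overlap both host and small RNA were assigned is not stated. Processed pseudogenes are named after Eef1a1 (2), Eef2 (1) and Tpt1 (7) in the RefSeq annotation, and 0 of these 10 have a row in the count table, so that how reads shared with them were assigned is uncertain.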

How the data were processed

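RNA was taken from microscopically identified tumor tissue, depleted of ribosomal RNA and sequenced as paired ends. According to the labels and the study's methods, the authors used Trimmomatic 0.39 for trimming and STAR 2.7.9 for alignment to mm10, and counted reads per gene with HTSeq 2.0.2. The deposited values are raw counts, beside a deposited gene length in kilobases (another unit), which was used only for TPM and the length correction. The strand setting was not given in the sources used here.

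The 14612 genes above 1 CPM in 2 or more samples were analyzed in edgeR 4.0.16 (R 4.3.3) with TMM factors, the quasi-likelihood F-test and Benjamini-Hochberg adjustment, as in the study's methods, but on counts where these name TPM. Log2 CPM used a prior count of 2. Alternatives used DESeq2 1.42.0 and limma 3.58.1 (voom), other scalings, filters, thresholds and prior counts, a length correction, a replicate block and leaving out each sample. Procedures were checked on drawn counts with known answers. Of 200 changed genes, the quasi-likelihood test called 18, the likelihood ratio test 87, DESeq2 104 and voom 31. In the same order they also called 3, 54, 81 and 0 unchanged genes. Ratios were tested by exact permutation in scipy 1.17.1, doubling the smaller tail.

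The genes and lists were chosen with earlier results of these data known. The named genes were the 10, their paralogs, up to 3 genes of each list with the smallest unadjusted p, markers, and the 5 genes of closest profile. Pbsn, Rack1 and Larp1 were named after their values were seen. Total counts ranged from 18951782 to 28015507, and each of the 10 genes had 2664 counts or more in every sample, so that the spread between mice (common dispersion 0.238) set the precision. No libraries in a group were duplicates, with a chi-square of 133 per gene or more. Same-numbered samples were different animals, and their deviations correlated at 0.149 and -0.045. Gene models were those of GENCODE M21. Human HGF and MET were not analysed here.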

Additional observations from a re-analysis of the deposited data

How the results depend on the processing

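Under the 13 alternatives that kept all samples, the 10 fold changes were below 0 in 130 of 130 cases, and their median stayed within the spread between replicates (SD 0.36). Genes past the threshold numbered 0, but 369 with the likelihood ratio test, 989 with DESeq2 and 1596 at the unadjusted p with the fold change threshold. Leaving out 1 sample gave 0 to 1 gene (Coch, without intact replicate 1). Genes among the 10 with an unadjusted p under 0.05 numbered 3 (beside 6.28% of all genes), but 4 with DESeq2 (8.64%), 2 with the likelihood ratio test (5.06%) and with the older quasi-likelihood fit (5.93%), 1 with limma voom (5.4%), 0 with the replicate block (1.83%) and 0 to 7 without 1 sample (2.67% to 10.5%). The replicate block gave 975 genes at the unadjusted p with the fold change threshold and a median of -0.65 for the 10. With the replicate block the genes lower at an unadjusted p under 0.05 went from 6.28% to 1.83% over all genes, and from 4 to 0 for the other 5′ TOP messages, 6 to 3 for the small nucleolar RNA hosts, 5 to 1 for the partners of Npm1, 2 to 0 for other elongation factors, 1 to 0 for their modifiers, 3 to 1 for the partners of the poly(A)-binding protein, 2 to 1 for the regulators and 5 to 4 for proliferation. The shared numbers do not pair these animals. The cause of these differences was not tested.

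Leaving out 1 sample moved the median of the 10 between -0.98 and -0.15, and the number lower in every castrated sample between 4 and 10. Without intact replicate 2, Eef1a1 (0.38), Eef1d (0.093), Eef2 (0.085) and Tpt1 (0.20) changed direction, from values without intact replicate 1 of -0.90, -0.51, -0.61 and -1.02. Ratios near 0 also did so. Eef1d to Eef1a1 (0.046) was -0.038 without castrated replicate 3, and ran from -0.29 to 0.39 over all such fits. Eef2 to Eef1a1 (-0.0029) was 0.010 without castrated replicate 2, and ran from -0.30 to 0.29. Naca to Btf3 (-0.047) ran from -0.31 to 0.22. With a length correction, the median of the 10 was -0.64, that of the ribosomal protein genes -0.75 instead of -1.08, and the difference between groups in their median levels, the 10 minus the ribosomal protein genes, -0.52 instead of -0.27 (-0.40 to -0.14 without 1 sample). A median without genes that have pseudogene rows was not run, because 0 have one. The older quasi-likelihood fit, the corrected medians and the GENCODE lengths were chosen after seeing the data. With 2 intact mice, variation between intact mice and a difference due to castration cannot be told apart for genes in which intact replicate 2 stands alone.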

Other observations

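Over 865 genes shorter than 1 kb the median log2 CPM relative to the intact mean was -0.06, -0.42 and -0.31 in the castrated and -0.19 and 0.19 in the intact samples, whereas over 7594 genes of 2 to 5 kb it lay between -0.02 and 0.06 in all 5 samples. Of the 10 messages, Tpt1 alone has a deposited length under 1 kb, at 888 bases. By the principal GENCODE transcript Naca alone is under 1 kb, at 885 bases, and Tpt1 has 1169 bases.

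Coch, a secreted protein gene, was the 1 gene past the threshold when intact replicate 1 was left out, a fit of 3 castrated samples against 1 intact sample in which the castrated group alone gives the spread. It had 2.96, 2.62 and 3.16 CPM in the castrated samples, and of the intact samples replicate 1 had 0.63 CPM and replicate 2 had 1488 CPM. The lowest and the highest value were thus both in intact tumors.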
